A study of Bos taurus with 15 samples.

Results

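The 4 genes described here encode the proton pump of the stomach and the potassium channel that works beside it: *ATP4A* (ENSBTAG00000008777), *ATP4B* (ENSBTAG00000019961), *KCNQ1* (ENSBTAG00000010986) and *KCNE2* (ENSBTAG00000026260). They were taken by their symbols, each of which named 1 gene among the 27270 genes listed in every library. The data were single-cell RNA sequencing counts of Holstein cattle, in which each UMI (unique molecular identifier) stands for 1 captured RNA molecule read at its 3′ end. The 15 libraries held 11 newborn (NB) tissues (salivary gland, liver, reticulum, omasum and abomasum, then the gut from duodenum, jejunum and ileum to cecum, colon and rectum) and 4 adult (AD) tissues (duodenum, jejunum, cecum and colon). The AD tissues came from 1 lactating cow and the NB tissues from 3 calves, without a statement of which calf gave which library. NB gut tissues had an EDTA and trypsin step that the AD tissues did not have, and the AD jejunum and colon were digested with another enzyme kit than their NB counterparts, so stage, animal and dissociation cannot be told apart. With 1 library for each combination of tissue and stage, groups could not be tested against each other. The intervals below are exact 95% intervals (Poisson for UMIs, Clopper-Pearson for shares of cells) that cover counting error and not the spread between animals.

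The gastric pump moves protons into the lumen in exchange for potassium, and it is the last step of acid secretion by the parietal cell of the gastric gland. *ATP4A* encodes its catalytic alpha subunit and *ATP4B* its glycosylated beta subunit. The pump can run only while potassium returns to the lumen, which is the known task of the channel formed by the pore subunit KCNQ1 and the small accessory subunit KCNE2. KCNQ1 is used in other epithelia and in the heart with other KCNE subunits, and parietal cells are known for their dense mitochondria. The abomasum is the glandular stomach of cattle, and the reticulum and omasum are lined by a squamous epithelium without gastric glands.

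Deposited totals ranged from 17707625 to 129458578 UMIs per library. After the limits of the study's methods had been applied, 119798 of 172405 barcodes were kept as cells, between 2636 and 11614 per library, with a median of 3519 to 8838 UMIs per cell. The NB abomasum kept 8926 cells with a median of 7273 UMIs. Between 15.1% and 25.9% of the UMIs of the other 14 libraries fell on the 34 genes that exceeded 1% of any library, against 56.1% in the NB abomasum, where lysozyme and milk-clotting enzyme genes were abundant. Levels are given as CPM, the UMIs of a gene scaled to a total of 1000000 UMIs of the cells in question, and a large share of abundant genes lowers the CPM of every other gene in that library. Values scaled to the UMIs outside those 34 genes are called rescaled CPM. Barcodes of the other libraries that also occurred in the NB abomasum made up 599 of 158207, and they held 0 of 9 *ATP4A*, 3 of 1698 *ATP4B*, 17 of 4090 *KCNQ1* and 0 of 1 *KCNE2* UMIs before filtering.

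All 4 genes had their highest level in the NB abomasum, but only *ATP4A* and *KCNE2* were nearly confined to it. *ATP4A* reached 75468 UMIs or 906 CPM there (interval 900 to 913). The other 14 libraries held 4 *ATP4A* UMIs in all, 1 each in the NB reticulum, omasum, cecum and colon, and the remaining 10 libraries, all 4 AD libraries among them, had 0. The exact interval of a count of 0 reached from 0.0491 CPM in the NB jejunum to 0.234 CPM in the NB salivary gland, depending on the depth of the library. *KCNE2* had 896 UMIs or 10.8 CPM in the NB abomasum (interval 10.1 to 11.5), 1 UMI in the NB duodenum and 0 in the other 13 libraries. The catalytic subunit and the accessory channel subunit were thus at the limit of detection in every other library as a whole. Some libraries held few epithelial cells, which limits what this says of the tissue. In the 29 epithelial cells of the AD duodenum, 0 UMIs of either gene allowed up to 26.1 CPM.

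*ATP4B* and *KCNQ1* had a wider distribution. *ATP4B* had 45707 UMIs or 549 CPM in the NB abomasum (interval 544 to 554). Its next level was 42.6 CPM in the NB salivary gland (interval 39.4 to 45.9), followed by 4.51 CPM in the NB liver and 2.45 CPM in the NB rectum. These first 4 levels did not overlap in their intervals. From the NB rectum downwards the intervals of neighbours overlapped, with the exception of the step from the NB cecum (0.902 CPM) to the AD cecum (0.371 CPM). The lowest *ATP4B* level was 0.0295 CPM in the NB reticulum, and the median of the 14 libraries was 0.637 CPM.

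*KCNQ1* had 5437 UMIs or 65.3 CPM in the NB abomasum (interval 63.6 to 67.0). The next levels were those of the NB small intestine, with 16.0 CPM in the duodenum (interval 15.01 to 17.0), 6.06 CPM in the jejunum and 2.99 CPM in the ileum. Those 4 levels were separated by more than their counting intervals, but the libraries differed in their share of epithelial cells, within which the 3 intestinal levels were 21.9, 16.5 and 11.9 CPM. The NB omasum with 2.36 CPM and the NB reticulum with 2.05 CPM came next, and from the ileum downwards every neighbour overlapped the next. The lowest *KCNQ1* levels were 0.254 CPM in the NB salivary gland and 0.125 CPM in the AD duodenum.

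**Figure D1:**
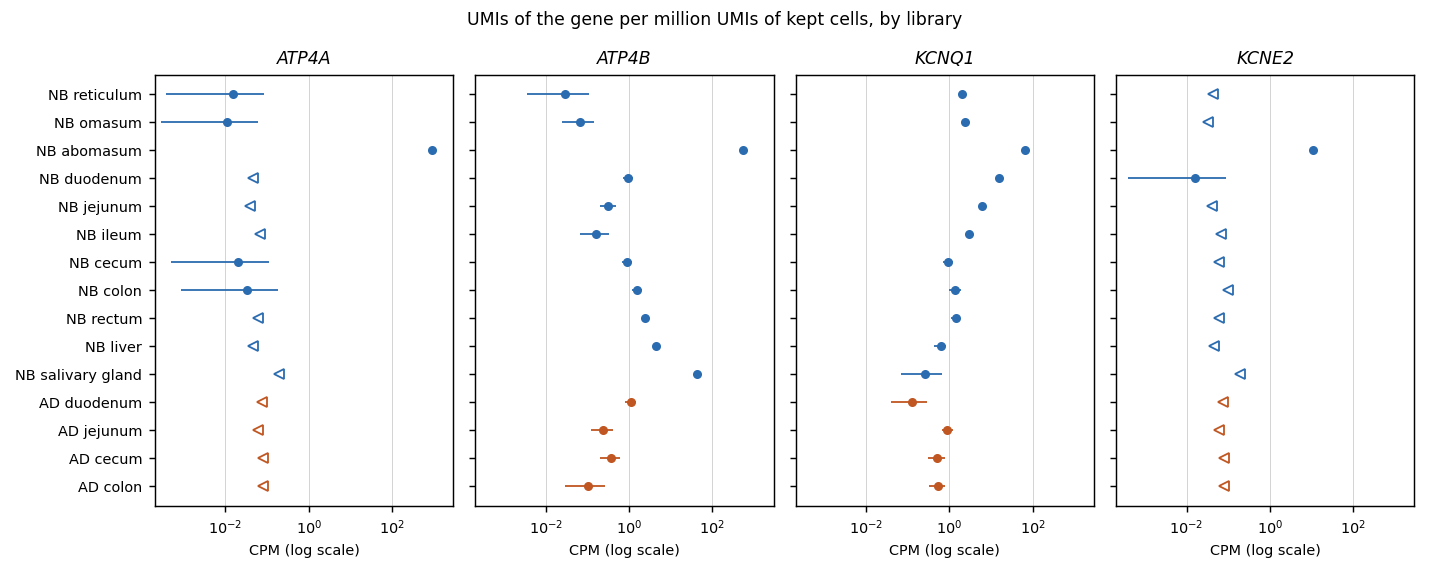
Level of each gene in the 15 libraries, in CPM over kept cells on a log axis, with exact Poisson 95% intervals (NB libraries in blue, AD libraries in orange). Open triangles mark libraries with 0 UMIs, placed at the level of 3 UMIs. The NB abomasum is the highest point in all 4 panels, and the triangles fill most of the *ATP4A* and *KCNE2* panels.

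Set against the highest of the other 10 NB libraries, the NB abomasum was 12.9-fold higher for *ATP4B* (interval 11.95 to 13.9) and 4.09-fold higher for *KCNQ1* (interval 3.82 to 4.37). For *ATP4A* the ratio was 27621 (interval 4957 to 1.09e+06), and for *KCNE2* it was 687 (interval 123 to 27181), both against a library with 1 UMI. All 4 genes passed 2-fold, as did 1.03% of the 10210 genes with at least 10 CPM in an NB library. *ATP4A* and *KCNE2* also passed 100-fold, as did 0.176% of those genes, but both reached 10 CPM through the NB abomasum alone, so that filter fixed that they passed and nothing is read from these counts for them. With a limit of 10% instead of 40% on mitochondrial UMIs, *ATP4A* in the NB abomasum was 65.7 CPM and *ATP4B* was 52.7 CPM, and the *ATP4B* ratio to the salivary gland was 1.29. The *KCNE2* ratio was then 12.02, no longer past 100-fold, and the *ATP4A* ratio 1650. The level of both pump subunits in this library therefore rested on cells with a high share of mitochondrial UMIs.

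Within the NB abomasum, the UMIs of the pump subunits were concentrated in a small number of cells. *ATP4A* was detected in 47.4% of the cells, yet cells with 50 or more *ATP4A* UMIs, 5.37% of all, held 91.1% of its UMIs. *ATP4B* was detected in 39.7% of the cells, and the 4.55% with 50 or more UMIs held 83.0%. *KCNQ1* showed no such tail. It was detected in 34.1% of the cells, at most 11 UMIs were found in a cell, and cells with 1 to 4 UMIs held most of its total. *KCNE2* was detected in 5.93% of the cells with at most 6 UMIs in a cell. When each cell was thinned to 2000 UMIs, which left out 705 shallower cells, these shares were 22.6%, 19.5%, 10.9% and 1.76%.

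**Figure D2:**
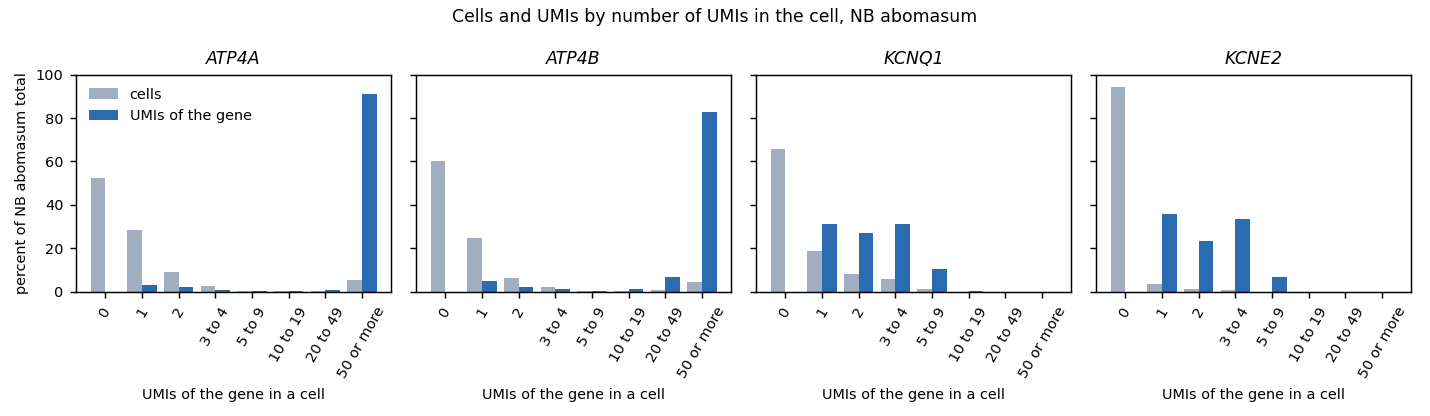
Percent of the 8926 NB abomasum cells (grey) and percent of the UMIs of the gene (blue) by the number of UMIs of that gene in the cell, both from 0 to 100%. For *ATP4A* and *ATP4B* the largest blue bar is at 50 or more UMIs (91.1% and 83.0%) beside a small grey bar. All UMIs of *KCNE2* and all but 0.386% of those of *KCNQ1* lie between 1 and 9 UMIs.

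Cells with at least 10 UMIs of both pump subunits are called pump-rich here, a threshold that was set after the counts had been seen. There were 538 cells with at least 10 *ATP4A* UMIs and 526 with at least 10 *ATP4B* UMIs, and 520 cells (5.83% of the library, interval 5.35 to 6.33) had both. The 2 subunits thus marked almost the same cells at this threshold. The pump-rich cells held 92.5% of the *ATP4A* UMIs and 90.7% of the *ATP4B* UMIs, which is what chose them. They also held 79.1% of the *KCNE2* UMIs, which did not choose them, but 12.5% of the *KCNQ1* UMIs. The 4 genes had 13144, 7812, 134 and 128 CPM in these cells for *ATP4A*, *ATP4B*, *KCNE2* and *KCNQ1*. In the 8406 other cells *KCNE2* was at 2.40 CPM (interval 2.07 to 2.77) and *KCNQ1* at 61.0 CPM (interval 59.3 to 62.8).

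Single cells with several *KCNE2* UMIs were nearly all pump-rich. Of the 207 cells with 2 or more *KCNE2* UMIs, 200 were pump-rich, and of the 102 cells with 3 or more, 101 were. A *KCNE2* UMI was found in 67.3% of the pump-rich cells (thinned 21.8%) and in 2.13% of the others (thinned 0.415%). For *KCNQ1* the shares were 50.4% (thinned 21.0%) and 33.1% (thinned 10.2%). Over the 520 pump-rich cells, the Pearson correlation of log2(CPM + 100) was 0.75 between *ATP4A* and *ATP4B* and 0.25 between *ATP4A* and *KCNE2*. It was -0.25 between *ATP4A* and *KCNQ1*, and these cells share 1 library and its depth. The Spearman correlations of the same pairs were 0.62, 0.19 and -0.44. The median share of mitochondrial UMIs in the pump-rich cells was 30.3% (5th to 95th percentile 17.6 to 38.6), against 4.91% in the other cells.

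A low level of both pump subunits was present in cells that are not expected to carry a gastric pump. In the non-epithelial cells, which had at least 1 UMI of *PTPRC*, *COL1A2*, *COL3A1* or *PECAM1* and none of *EPCAM*, an *ATP4A* UMI was found in 43.7% of 3081 cells (thinned 24.98%, median 3829 UMIs) and an *ATP4B* UMI in 35.9% (thinned 21.1%). *KCNQ1* was found in 6.07% of them (thinned 2.95%) and *KCNE2* in 1.201% (thinned 0.401%). These shares are taken as the background of the library, and shares of *ATP4A* and *ATP4B* near them in other cells are not read as expression. Free RNA from broken cells is a known source of such counts, and its part was not tested.

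The number of *ATP4A* UMIs per *ATP4B* UMI, a count ratio that depends on how well the 3′ end of each RNA is captured, was compared between cell groups. It was 1.68 in the pump-rich cells (interval 1.66 to 1.70). It was 1.39 in the epithelial cells that were not pump-rich (interval 1.31 to 1.48) and 1.32 in the non-epithelial cells that were not (interval 1.23 to 1.41). T cells had 127 *ATP4A* and 118 *ATP4B* UMIs, a ratio of 1.08 (interval 0.831 to 1.39). The cells that were not pump-rich thus carried relatively more *ATP4B*, and the intervals of these 3 groups overlapped. In these T cells an *ATP4B* UMI was found in 36.1% (thinned 20.8%), near the 35.9% (thinned 21.1%) of the non-epithelial cells, with up to 17 UMIs in a cell. T cells of other libraries also had *ATP4B*, with 55.4 CPM in the NB salivary gland. The part of background in the T cells of the NB abomasum was not tested.

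Cells were then gated on 3 genes of other gastric lineages: *LYZ2*, a stomach lysozyme gene, *TFF1*, a trefoil factor of mucous cells, and *CHGA*, a granule protein of endocrine cells. A cell was in a gate when it had at least 2 UMIs of the gene and the gene's share of its UMIs was above the 95th percentile of that share in the non-epithelial cells. That percentile was 3.65% for *LYZ2*, 0.0346% for *TFF1* and 0% for *CHGA*. *LYZ2* has near copies among the lysozyme genes (*LYZ1*, *LYZ3*), so its own level is uncertain. The *LYZ2* gate held 3488 cells (39.1%), the *TFF1* gate 995 (11.1%) and the *CHGA* gate 56 (0.627%). A further 88 cells (0.986%) were in more than 1 gate and 4299 (48.2%) in none.

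The pump subunits and *KCNE2* lay mainly outside all gates. Ungated cells held 91.5% of the *ATP4A*, 90.6% of the *ATP4B* and 79.9% of the *KCNE2* UMIs. With the limit of 10% on mitochondrial UMIs this no longer held: ungated cells then had 1951 *ATP4A* and 33 *KCNE2* UMIs, against 2304 and 133 in the *LYZ2* gate. The *LYZ2* gate also held more UMIs of all genes then, 51488765 against 14255385. In CPM *ATP4A* was still higher in the ungated cells, at 137 (interval 131 to 143) against 44.7 (interval 42.9 to 46.6). *KCNE2* overlapped, at 2.31 CPM (interval 1.59 to 3.25) and 2.58 CPM (interval 2.16 to 3.06). These levels were not rescaled. With the main limit of 40%, *ATP4A* was at 3246 CPM in the ungated cells (interval 3222 to 3271). It was at 99.8 CPM in the *LYZ2* gate and 98.5 CPM in the *TFF1* gate. An *ATP4A* UMI was found in 45.7% of the *LYZ2* gate (thinned 10.7%) and in 48.5% of the *TFF1* gate (thinned 18.6%). Both thinned shares were below the 24.98% of the non-epithelial cells, while both shares before thinning were above their 43.7%. The median depths differed, at 14991 UMIs in the *LYZ2* gate, 8087 in the *TFF1* gate and 3829 in the non-epithelial cells. These shares therefore cannot decide whether the gates stood above the background. Pump-rich cells carried much of the level in the *LYZ2* gate, which had 46.5 CPM *ATP4A* and 34.4 CPM *ATP4B* without them. *ATP4B* had 1946 CPM in the ungated cells, 67.0 CPM in the *LYZ2* gate and 71.1 CPM in the *TFF1* gate, with thinned shares of 8.92% and 15.05% in the gates, again below the 21.1% of the non-epithelial cells. In rescaled CPM the order was not the same, with 385 *ATP4A* and 258 *ATP4B* in the *LYZ2* gate against 364 and 247 in the non-epithelial cells. Without pump-rich cells in either group, the rescaled levels overlapped, at 180.0 (interval 173 to 187) and 179 (interval 171 to 187) for *ATP4A*.

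The *CHGA* gate had 669 CPM *ATP4A*, but 1 cell decided this value. That cell held 233 of the 269 *ATP4A* UMIs and 114 of the 141 *ATP4B* UMIs, and without it the gate was at 93.0 CPM *ATP4A* (interval 65.1 to 129) and 69.7 CPM *ATP4B* (interval 46.0 to 101). *KCNE2* was at 33.7 CPM in the ungated cells (interval 31.2 to 36.2), and at 2.17 CPM in those that were not pump-rich. It was at 3.13 CPM in the *LYZ2* gate (interval 2.67 to 3.64), 1.43 CPM in the *TFF1* gate and 2.49 CPM in the *CHGA* gate, the latter from 1 UMI. Non-epithelial cells had 2.97 CPM (interval 2.13 to 4.03). In CPM, *KCNE2* in the 3 gates overlapped the level of the non-epithelial cells. In rescaled CPM it did not in the *LYZ2* gate, with 12.1 (interval 10.3 to 14.05) against 3.72 (interval 2.67 to 5.04), and a *KCNE2* UMI was found in 4.19% of that gate (thinned 0.595%).

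*KCNQ1* was not concentrated in the ungated cells. The *LYZ2* gate held 63.2% of its UMIs, the *TFF1* gate 17.8% and the ungated cells 17.3%. Of the 83280887 UMIs of all genes in the library, these groups held 53026783, 7674681 and 21276985. *KCNQ1* in the *LYZ2* gate, at 64.8 CPM, was thus near the 65.3 CPM of the whole library. It was detected in 56.3% of the *LYZ2* gate (thinned 13.9%, median 14991 UMIs) and 52.8% of the *TFF1* gate (thinned 22.5%, median 8087 UMIs). Its share was 8.93% in the *CHGA* gate (5 of 56 cells) and 6.75% in the ungated cells that were not pump-rich. The share was 6.07% in the non-epithelial cells, most of which were also ungated. Among them the endothelial cells had 17.3 CPM *KCNQ1* and the stromal cells 21.3 CPM. T cells had 2.999 CPM from 3 UMIs (interval 0.619 to 8.77). The part of background in these levels was not tested. *KCNQ1* in the *LYZ2* gate, the *TFF1* gate and the pump-rich cells was above all of these levels.

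The order of *KCNQ1* between these groups depended on the scale. It had 64.8 CPM in the *LYZ2* gate (interval 62.6 to 67.0) and 126 CPM in the *TFF1* gate (interval 118 to 134), a ratio of 1.94 (interval 1.81 to 2.09). However, 87.5% of 6841 genes were at least 2-fold higher and 0.453% at least 2-fold lower in the *TFF1* gate on that scale, and the median log2 ratio was 1.64, since the abundant genes took 74.1% of the UMIs in the *LYZ2* gate and 26.6% in the *TFF1* gate. In rescaled CPM *KCNQ1* had 250 in the *LYZ2* gate (interval 241 to 258), 171 in the *TFF1* gate (interval 161 to 183) and 215 in the pump-rich cells (interval 199 to 231). Non-epithelial cells had 20.2 rescaled CPM. The direction between the gates turned with the scale, while all 3 groups stayed above the non-epithelial cells on both. With gates at fixed shares of UMIs the ratio in CPM was 0.775, but only 59 cells with 25 *KCNQ1* UMIs were left in the *TFF1* gate, at 48.3 CPM (interval 31.3 to 71.4), which overlapped the 62.4 CPM of the *LYZ2* gate (interval 60.5 to 64.4).

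**Figure D3:**
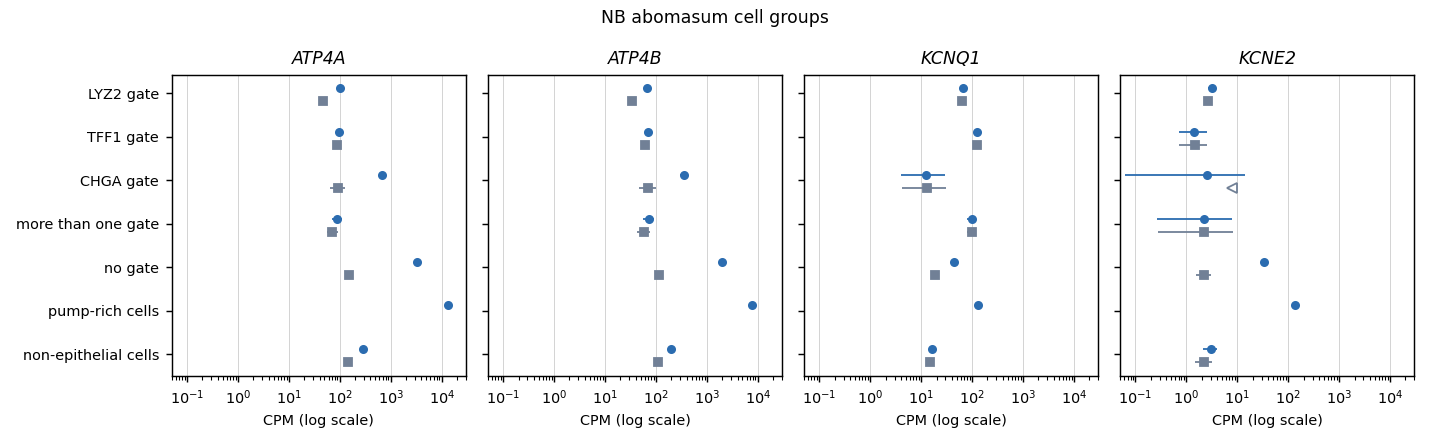
Level of each gene in NB abomasum cell groups, in CPM on a log axis with exact Poisson 95% intervals. Blue circles are all cells of a group, grey squares the same group without its pump-rich cells, and the open triangle marks 0 UMIs at the level of 3. Without the pump-rich cells, *ATP4A* lies between 46.5 and 149 CPM in the 5 gate groups, whereas *KCNQ1* keeps its level in the *LYZ2* and *TFF1* gates.

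The channel subunits were also compared between epithelial cells with and without UMIs of both pump subunits, a split that used neither of them. Epithelial cells were the 3765 cells with *EPCAM* and none of the 4 non-epithelial markers. In the 948 cells with at least 1 UMI of both *ATP4A* and *ATP4B*, *KCNE2* had 37.1 CPM, against 2.53 CPM in the 2817 others, a ratio of 14.7 (interval 11.8 to 18.5). A single UMI of a pump subunit was also found in background cells, and the 316 pump-rich cells among the 948 held 456 of their 474 *KCNE2* UMIs. With at least 10 UMIs of both (316 against 3449 cells), *KCNE2* had 139 and 2.40 CPM, a ratio of 57.8 (interval 47.0 to 71.6). *KCNE2* was found in 69.6% of these pump-rich cells (median 10011 UMIs) and 3.16% of the others (median 13337 UMIs). At least 2-fold higher were 8.31% of 4912 genes with the lower threshold and 39.9% of 5934 genes with the higher one, and 0% and 4.7% were at least 2-fold lower. These genes had at least 10 CPM in either group, a level that *KCNE2* reached in the cells with both pump subunits alone. That filter favoured a difference in *KCNE2*, so nothing is read for it from these shares.

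*KCNQ1* differed far less. Its CPM was 86.3 against 74.2 with at least 1 UMI of both pump subunits, a ratio of 1.16 (interval 1.08 to 1.25), and 134 against 73.3 with at least 10, a ratio of 1.83 (interval 1.65 to 2.02). The median log2 ratio of all tested genes was 0.21 and 0.79 in the same comparisons. In rescaled CPM the *KCNQ1* ratio was 0.960 and 0.993, and that of *KCNE2* was 12.1 and 31.4. *KCNE2* was thus higher in the cells with UMIs of both subunits on both scales, and *KCNQ1* on the CPM scale alone. With the limit of 10% on mitochondrial UMIs the ratios were 0.969 for *KCNE2* and 0.970 for *KCNQ1*. Both are near 1 and were computed without an interval, so no direction is read from them. Below that limit, 23 of 8135 deposited barcodes were pump-rich.

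Other genes of acid secretion were read from a list of 39 genes by role, 38 of which were listed in the files (*CLIC6* was not). Between pump-rich and other epithelial cells, 25 of them reached 10 CPM in at least 1 group, and 19 of these were at least 2-fold higher, 0 at least 2-fold lower, against 39.9% and 4.7% of all genes. However, 8 of the 19 reached the level through the pump-rich cells alone, among them *KCNJ16*, *HRH2*, *PTGER3* and *ESRRB*, and the filter favoured a difference in such genes. Of the 16 genes that reached 10 CPM in the other epithelial cells, 11 were at least 2-fold higher and 0 lower, against 29% and 6.55% of 4261 genes with that level. In rescaled CPM, with the level required in either group, 28 reached it, 17 were higher and 6 lower, against 12.4% and 19.9% of all genes. The same list was also read in the comparison of whole NB libraries. Of 20 genes tested there, 5 were at least 2-fold higher in the NB abomasum than in every other NB library and 9 at least 2-fold below the highest, against 1.03% and 80.4% of all genes tested, where a gene could likewise enter through the NB abomasum alone.

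Of 4 ion transport genes that reached 10 CPM in the other epithelial cells, 3 were at least 2-fold higher. *SLC4A2*, the basolateral exchanger that lets bicarbonate out and chloride in, had 580 CPM in the pump-rich epithelial cells and 27.8 CPM in the others, a ratio of 20.8 (interval 19.4 to 22.4). *CA2*, the carbonic anhydrase that supplies protons, was 13.5-fold higher (interval 12.5 to 14.5), and *SLC12A2*, a sodium, potassium and chloride cotransporter, also 13.5-fold (interval 12.2 to 14.98). The chloride transporters *SLC26A7* and *SLC26A9*, which reached the level in the pump-rich cells alone, were at 38.0 and 19.8 CPM in the pump-rich cells, with ratios of 451 (interval 172 to 1682) and 27.6 (interval 18.0 to 43.1). *SLC9A4*, a sodium and proton exchanger, was the exception at 9.43 against 18.8 CPM, a ratio of 0.502 (interval 0.339 to 0.718).

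Among other potassium channels, *KCNJ16* had 76.7 CPM in the pump-rich cells and 0.295 CPM in the others (ratio 260, interval 152 to 482), and *KCNJ15* had 117 and 34.3 CPM (ratio 3.42, interval 3.05 to 3.82). Both encode inward rectifier subunits. The relatives of *KCNE2* were scarce: *KCNE1* had 0.913 and 3.92 CPM, and *KCNE3* had 5 UMIs in the pump-rich cells and 10 in the others, both below the level for comparison. *KCNE2* thus had the most UMIs of the 4 KCNE genes in the pump-rich cells (*KCNE4* had 1 UMI). *ATP1B1*, which encodes a beta subunit of the sodium pump, was 5.78-fold higher (interval 5.48 to 6.10). *ATP12A*, which encodes the non-gastric proton pump, had 0 UMIs in both groups.

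Of the receptors, *HRH2*, the histamine receptor that stimulates acid secretion, had 50.8 and 0.358 CPM (ratio 142, interval 86.0 to 249). *PTGER3*, a prostaglandin receptor, had 36 UMIs against 1 (ratio 520, interval 87.5 to 21098). *CCKBR*, the gastrin receptor, differed less, with 84.0 and 50.4 CPM (ratio 1.66, interval 1.46 to 1.89), and *CHRM3* and *SSTR2* had 13 UMIs or fewer. Of 7 membrane traffic genes 3 were at least 2-fold higher, near the 39.9% of all genes, with a median log2 ratio of 0.98 against 0.79. *EZR*, which links the membrane to actin, had a ratio of 9.52 and *LASP1* one of 6.84. The vesicle genes *RAB11A*, *STX3* and *VAMP2* had ratios of 2.05, 1.97 and 1.90, and *RAB25* and *RAB27B* had 0.761 and 0.502. The ratios of *RAB11A*, *STX3*, *VAMP2* and *CCKBR* were near the median log2 ratio of 0.79 over all genes. Nothing particular to these genes is therefore read from them. *CBLIF*, the gene of intrinsic factor, had 7884 and 30.5 CPM (ratio 259), and the nuclear receptor gene *ESRRB* had 23.7 and 0.126 CPM.

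**Figure D4:**
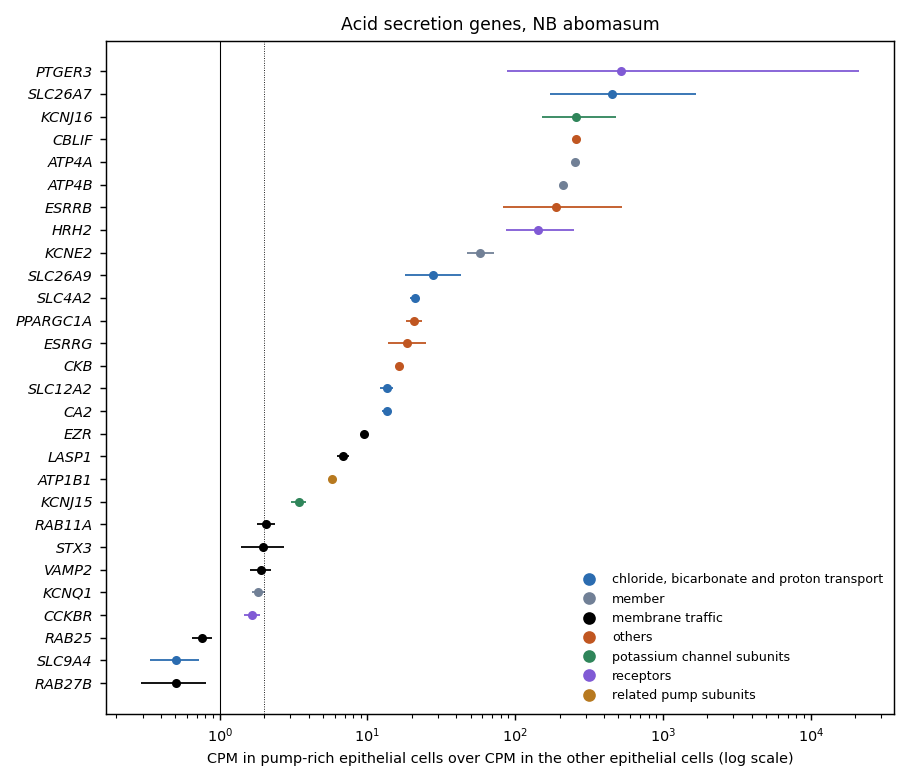
Ratio of CPM in the 316 pump-rich epithelial cells to CPM in the 3449 other epithelial cells of the NB abomasum, on a log axis with exact 95% counting intervals, for the members and the acid secretion genes that reached 10 CPM (all but 1 shown), coloured by role. The solid line is a ratio of 1 and the dotted line 2. *KCNE2* sits among the genes above 20, and *KCNQ1* lies below the dotted line near *CCKBR*.

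The genes with the largest ratios outside the list came from a fixed rule on level and rank. The genes named here as higher reached the required 50 CPM in the cells with both pump subunits alone. *GHRL* and *TFF3*, named as lower, reached it in the other cells alone. The rule thus favoured large ratios in such genes. With at least 1 UMI of both pump subunits, after *ATP4A*, *ATP4B* and *CBLIF*, these were *KLK1* (67.6-fold), *DPEP1* (55.7-fold), the water channel gene *AQP4* (54.7-fold), *TMEM30C* (54.2-fold), *CLEC2L* (52.2-fold), the vacuolar proton pump gene *ATP6V1G3* (50.0-fold) and the troponin gene *TNNI3* (46.9-fold). At 10 UMIs *EIF5A2* was the highest at 266-fold. In the other direction, *GHRL*, the ghrelin gene, had 21.0 CPM in the pump-rich cells and 1089 CPM in the other epithelial cells. The mucous cell genes *TFF3* and *AGR2* had ratios of 0.0551 and 0.0996, and *LYZ2* had a ratio of 0.0919.

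Clusters of NB abomasum cells were made without the members and the acid secretion list. Of 24 clusters, 1 (cluster 7, 489 cells) held 488 of the 520 pump-rich cells. It was led by *CBLIF*, *ATP4A*, *ATP4B*, *TNNI3* and *COX8B* and is called parietal-like, since 7 parietal markers had at least 20 CPM and at least 2-fold the mean of the other clusters in it. Of these markers *SLC4A2* had 609 CPM, *AQP4* 584 CPM and *KCNJ16* 81.1 CPM, each the highest of the clusters. *SLC9A4* was not one of the 7, at 10.6 CPM against a mean of 7.48 CPM in the other clusters. Its median share of mitochondrial UMIs was 30.5%. Cluster 7 also had 63272 CPM of *CYM*, the milk-clotting enzyme of chief cells. This ranked 7 of the 24 clusters and was below the mean of 78780 CPM in the other clusters. The chief cell markers *PGA5* (2264 against 10379 CPM) and *PGC* (1.02 against 31.6 CPM) were below that mean as well.

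*ATP4A* was at 14003 CPM in the parietal-like cluster and between 38.8 and 2037 CPM (median 134) in the other 23. *ATP4B* was at 8294 CPM against 26.6 to 1093 CPM (median 102), and *KCNE2* at 143 CPM against 0 to 23.8 CPM (median 1.85). The second level of all 3 genes was in cluster 23, in which 16 of 25 cells were pump-rich. In CPM, *KCNQ1* did not peak with them. It was at 133 CPM in the parietal-like cluster, 154 CPM in cluster 5 (589 cells led by *CLCA1*, *TFF2* and *AGR2*) and 125 CPM in cluster 11 (335 cells led by *TFF3*, *CLCA1* and *SPDEF*). Clusters 1, 3 and 4, led by lysozyme and *CYM* genes, had 67.0, 88.9 and 42.0 CPM *KCNQ1*, and cluster 20, led by *GHRL* and *CHGA*, had 24.6 CPM. The clusters were not rescaled, so their *KCNQ1* order holds for CPM alone. In rescaled CPM *KCNQ1* was at 250 in the *LYZ2* gate, 215 in the pump-rich cells and 171 in the *TFF1* gate.

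Likeness between genes was described by the Pearson correlation of log2(CPM + 10) over the 24 clusters, which come from 1 library and share its depth and background. *ATP4A* and *ATP4B* had 0.995, *ATP4A* and *KCNE2* 0.865, *KCNE2* and *KCNQ1* 0.434, and *ATP4A* and *KCNQ1* 0.139. Of 11070 genes, those most like *ATP4A* were *ATP4B*, *CBLIF* (0.990), *TNNI3* (0.980), the mitochondrial *ND1* (0.921) and *ATP5MC1* (0.919). The same 5 places for *ATP4B* were taken by *ATP4A* and the same other 4 genes. *KCNE2* was most like *BMPR1B* (0.965), *PRLR* (0.962), *TMEM30C* (0.962), *AQP4* (0.957) and *ESRRB* (0.951). The named genes most like *KCNQ1* were *PIK3C2G* (0.908), *ACSM3* (0.899) and *RAP1GAP* (0.887). The lists of the channel subunits depended on the settings: of the 5 genes most like *KCNE2*, 3 remained with a lower Leiden resolution, 3 with a higher one and 1 with a pseudocount of 1 CPM, and of those most like *KCNQ1* 2, 3 and 1 remained. For each pump subunit at least 4 of 5 remained.

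Outside the abomasum, *ATP4B* was found without *ATP4A*. Of 1018 kept cells with an *ATP4B* UMI in the other 14 libraries and 4 with an *ATP4A* UMI, 0 had both. With so few *ATP4A* cells an overlap could hardly occur, so nothing further is read from this 0. Most of the *ATP4B* cells carried *CD3E*, a subunit of the T cell receptor complex: 911 of the 1018. In the NB salivary gland 97.5% of them did, against 68.3% of all cells there, and in the NB rectum 96.6% against 18.1%. The split of cells by *CD3E*, *PTPRC*, *PECAM1* and collagen genes was added after the counts had been seen.

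In the NB salivary gland, *CD3E*+ cells without *EPCAM*, *COL1A2* or *COL3A1* UMIs (called T cells here) had 55.4 CPM *ATP4B* (interval 50.2 to 60.9), and an *ATP4B* UMI was found in 23.5% of 1251 such cells. The levels in T cells were 20.0 CPM in the NB liver (interval 17.7 to 22.5), 15.02 CPM in the NB rectum, 9.30 CPM in the NB colon and 8.43 CPM in the NB cecum. Of the 12 libraries with at least 50 T cells, 11 had a higher *ATP4B* level in T cells than in the remaining cells, and in 10 the interval lay above the level of the rest. The exception was the NB jejunum with 0 UMIs in 196 T cells. There *ATP4B* was found in epithelial cells instead, at 1.62 CPM (interval 0.927 to 2.63). In the NB duodenum the epithelial cells had 1.42 CPM (interval 1.06 to 1.87), beside 2.98 CPM from 1 UMI in 73 T cells. *ATP4B* outside the stomach was thus mainly a T cell signal at a low level, and its protein was not measured.

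*KCNQ1* outside the abomasum had its highest levels in epithelial cells of the liver and small intestine and in endothelial cells. Among the 12 libraries with at least 50 epithelial cells, its epithelial level ranged from 0.528 to 36.8 CPM with a median of 1.98 CPM, and in 5 the interval lay above the level of the remaining cells. The highest were 36.8 CPM in the 134 epithelial cells of the NB liver (interval 25.1 to 51.9), 21.9 CPM in the NB duodenum, 16.5 CPM in the NB jejunum, 16.2 CPM in the AD jejunum and 11.9 CPM in the NB ileum. The large intestine was low, with 1.00 CPM in the NB colon and 0.701 CPM in the NB cecum from 1 UMI. *KCNE3*, the known partner of KCNQ1 in the intestine, had at most 1.40 CPM in epithelial cells, from 2 UMIs in the NB cecum.

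Endothelial cells gave a second source of *KCNQ1*. In the 11 libraries with at least 50 of them its level ranged from 0 to 19.7 CPM with a median of 8.81 CPM, and in 7 the interval lay above the level of the remaining cells. The NB omasum had 19.7 CPM (interval 11.7 to 31.2) in 197 endothelial cells and the NB reticulum 11.4 CPM (interval 6.52 to 18.5) in 316. In those forestomach libraries the epithelial cells had 2.20 and 1.76 CPM, below the 2.82 and 2.70 CPM of the remaining cells. T cells had 0 to 2.40 CPM *KCNQ1* in the libraries with at least 50 of them.

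**Figure D5:**
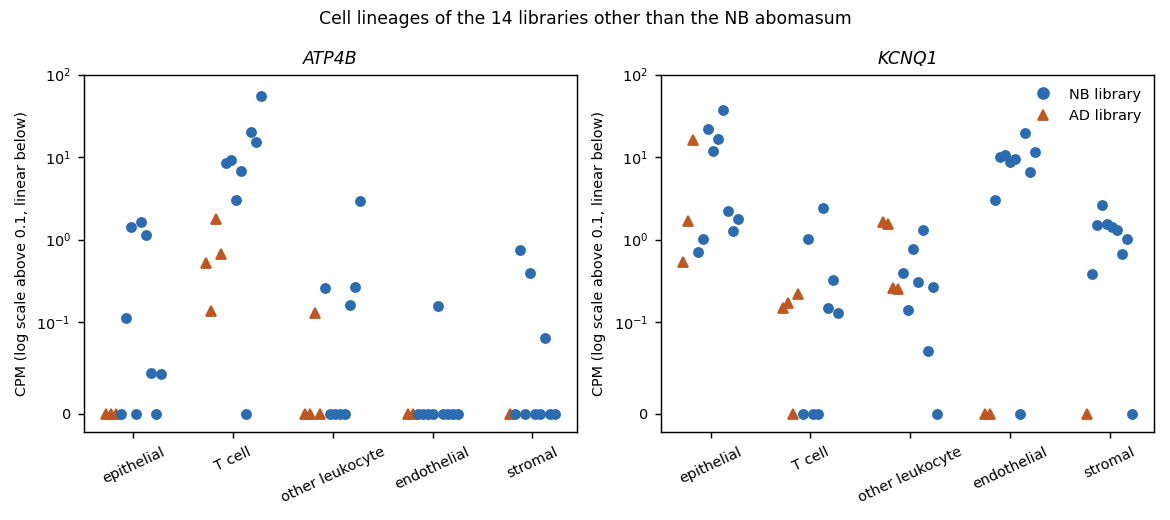
*ATP4B* (left) and *KCNQ1* (right) by cell lineage in the 14 libraries other than the NB abomasum, in CPM, for lineages with at least 50 cells in a library (log scale above 0.1, linear below). Each point is 1 library (blue circles NB, orange triangles AD). The *ATP4B* points stand highest in T cells, up to 55.4 CPM, and the *KCNQ1* points in epithelial and endothelial cells.

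Between stages, *ATP4A* and *KCNE2* could not be compared, since the duodenum, jejunum, cecum and colon held 2 *ATP4A* UMIs and 1 *KCNE2* UMI in all. *KCNQ1* had 16.0 CPM in the NB and 0.125 CPM in the AD duodenum, a ratio of 128, but the libraries differed in their cells. The NB duodenum held 2852 epithelial cells and the AD duodenum 29. Within epithelial cells the values were 21.9 CPM (interval 20.4 to 23.5) and 7.08 CPM from 1 UMI (interval 0.179 to 39.4), which overlapped. In the jejunum the library ratio was 6.78, whereas the epithelial cells had 16.5 CPM (interval 14.1 to 19.3) at NB and 16.2 CPM (interval 10.2 to 24.6) at AD. In the colon the library levels were 1.38 and 0.518 CPM (ratio 2.66), but the epithelial cells had 1.00 CPM (interval 0.459 to 1.91) at NB and 1.66 CPM (interval 0.343 to 4.86) at AD, a ratio of 0.604 with overlapping intervals. In the cecum the intervals overlapped as well. At least 2-fold higher at NB were 25.9% of the genes tested in the duodenum, 18.9% in the jejunum, 21% in the cecum and 16.7% in the colon.

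In T cells of the large intestine, *ATP4B* was higher in the NB than in the AD library of each tissue. In the colon it was 9.30 CPM in 695 NB T cells (interval 6.55 to 12.8) and 0.138 CPM in 7039 AD T cells (interval 0.0376 to 0.353), a ratio of 67.4. In the cecum the values were 8.43 CPM (interval 4.99 to 13.3) and 0.524 CPM (interval 0.287 to 0.879), a ratio of 16.1. The intervals did not overlap in either tissue, but they cover counting error only. The share of all genes that differed this far between NB and AD T cells was not counted. Nothing particular to *ATP4B* or to stage is therefore read from these ratios. In the duodenum the intervals overlapped, with 2.98 CPM from 1 UMI in 73 NB T cells and 1.79 CPM in 6483 AD T cells. In the jejunum the AD T cells had 0.663 CPM and the NB T cells 0 UMIs, which allowed up to 4.42 CPM.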

How the data were processed

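The deposited UMI counts per gene and barcode (whole numbers, not normalized) were made by the authors with Cell Ranger 3.1.0 on the ARS-UCD1.2 genome. The annotation release is not given in the sources used here. Reads that fit several genes, such as the lysozyme copies, may be lost or split. *ATP4B* and *KCNE2* overlap no neighbouring gene in the RefSeq annotation of ARS-UCD2.0, from which no coordinates were taken. Nothing removed free RNA.

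Barcodes were kept if they had 500 to 4000 genes, less than 50000 UMIs and less than 40% of their UMIs on 13 named mitochondrial genes. Doublets were scored against 2 simulated doublets per cell and removed at 0.8% per 1000 cells. DoubletFinder and the manual removal of clusters were not repeated. UMIs were summed per library and cell group and divided by their total (CPM). In the NB abomasum, epithelial cells had *EPCAM* and none of *PTPRC*, *COL1A2*, *COL3A1* and *PECAM1*. A level of 0 was set to 3 counts in the denominator of ratios over all genes and at the open triangles of the figures. Ratios were counted for genes with at least 10 CPM. Clusters came from 2000 variable genes, 30 principal components, 20 neighbours and Leiden resolution 1. Named genes were the members, the gate genes, the acid secretion list, the 5 genes most like each member and, at 50 CPM or more in a compared group, the 10 largest ratios in each direction. Values of 1 gene of that list, which is in its counts, are not reported here.

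The members and lists were chosen with earlier results of these data known. The ratio step was run on simulated data for the NB abomasum against the highest other NB library: 200 of 200 genes changed 4-fold were recovered and 0 unchanged genes were called among 10137. Unchanged genes were set no higher than the highest other library, with counting noise only. The simulated ratios were also corrected by the known total. The simulation therefore checks the computation and cannot show how abundant genes affect the real ratios. Alternatives covered the filters, doublets, gates, thinning and scaling. edgeR and DESeq2 gave scaling factors for the deposited counts and no test. Versions were Python 3.11.15, numpy 2.4.6, pandas 2.3.3, scipy 1.17.1, scikit-learn 1.9.0, igraph 0.11.9, leidenalg 0.10.2, matplotlib 3.10.9, R 4.3.3, edgeR 4.0.16 and DESeq2 1.42.0.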

Additional observations from a re-analysis of the deposited data

Results flagged for a closer look

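A signal of the pump was present in NB abomasum barcodes that the comparisons did not use, those with at least 40% mitochondrial UMIs. In these 2328 barcodes *ATP4A* had 2571 CPM, *ATP4B* 1581 CPM and *KCNE2* 18.9 CPM, each above the level of the kept cells (906, 549 and 10.8 CPM). *KCNQ1* had 34.9 CPM there, below the 65.3 CPM of the kept cells. Among the 329 of these barcodes with at least 500 genes, 235 (71.4%, interval 66.2 to 76.2) were pump-rich. Of all 14198 deposited barcodes of the library, 896 were pump-rich, and 520 of those were kept. The share of pump-rich barcodes was 0.283% below 10% mitochondrial UMIs, 33.0% between 30% and 40%, and 12.2% between 40% and 50%. The number of pump-rich cells in this library therefore depended on the mitochondrial limit.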

How the results depend on the processing

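With 1 library per group, neither replicates nor animals could be left out. No paired analysis was possible because the one available pairing, by tissue over the 4 tissues held at both stages, takes all its AD libraries from 1 cow. The main values were 906 CPM for *ATP4A*, 549 CPM for *ATP4B*, 65.3 CPM for *KCNQ1* and 10.8 CPM for *KCNE2* in the NB abomasum. With a limit of 10% mitochondrial UMIs they were 65.7, 52.7, 59.7 and 2.43 CPM. With no mitochondrial limit *ATP4A* was 1050, *ATP4B* 639 and *KCNE2* 11.8 CPM, and in all deposited barcodes *ATP4A* was 1016 and *ATP4B* 617 CPM. Without the upper limit on genes they were 894 and 542 CPM, and with doublets left in *ATP4A* was 915 CPM. In rescaled CPM (outside the 34 abundant genes) the 4 values were 2066, 1251, 149 and 24.5, with edgeR factors 1454, 880, 105 and 17.3, and with DESeq2 factors 1360, 824, 98.0 and 16.1. All 4 genes passed 2-fold under every alternative except the limit of 10% mitochondrial UMIs, where 3 did. The number of genes past 2-fold in the NB abomasum, 105, was 303 outside the abundant genes, 233 with edgeR factors, 232 with DESeq2 factors, 201 at 1 CPM and 301 with no filter.

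The ratio of *KCNE2* between epithelial cells with and without UMIs of both pump subunits, 14.7, fell to 0.969 with the 10% mitochondrial limit, which is near 1. It was 39.9, 56.6 and 57.8 with at least 2, 5 and 10 UMIs and 60.7 after thinning. The same ratio of *KCNQ1*, 1.16, fell to 0.970 with the 10% limit and to 0.960 outside the abundant genes, both near 1. It was 1.50, 1.81 and 1.83 with at least 2, 5 and 10 UMIs and 1.48 after thinning. The ratio of *KCNQ1* in the *TFF1* to the *LYZ2* gate, 1.94, was 2.16 with gates at the 99th percentile and reversed to 0.687 outside the abundant genes. With gates at fixed shares of UMIs (59 cells in the *TFF1* gate) the ratio was 0.775, but the intervals of the levels overlapped, so no direction is read from it. A gate at 1 UMI of the gene left 0 cells in the *TFF1* gate alone and gave no ratio. It also left 0 ungated cells and put 65427 of the 75468 *ATP4A* UMIs in the *LYZ2* gate, at 1072 CPM. The place of the pump outside all gates was thus lost with this setting. The threshold of 10 UMIs and the scaling of both ratios were added after the data had been seen. Apart from the changes in scaling and in the cells compared, the cause of each change was not tested.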
